A study of Mus musculus with 16 samples.

Results

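The 8 genes described here belong to the MHC class I antigen presentation pathway, are 8 of the 46983 genes in the deposited counts, and were followed in mouse embryonic stem cells (ESCs) depleted of RAM. They encode the heavy chains H2-K1 and H2-D1, the light chain B2m, the peptide transporter subunits Tap1 and Tap2, the loading chaperones Tapbp and Calr, and the transactivator Nlrc5. The set was chosen by its values in the input libraries, where H2-K1 was among the genes with the largest rises after RAM siRNA, so the input differences of these 8 genes are given as a description and carry no test. The rule had no threshold on a value. Of the 8 genes, 7 passed the filter of at least 1 CPM (counts scaled to library size) in at least 10 of the 16 libraries, as did 12805 genes in all, and Nlrc5 did not.

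The cells were 46C ESCs, a line from 129Ola mice that expresses GFP from the Sox1 locus, grown on gelatin with LIF and knockout serum replacement. Transfection was for 48 hr with an siRNA to RAM, or with a non-targeting siRNA as the control. RAM, encoded by Ramac, activates the mRNA cap methyltransferase RNMT. From each culture RNA was sequenced from the cytoplasmic extract (input) and from the pooled polysome fractions of a sucrose gradient, after treatment of all cells with cycloheximide, which stalls ribosomes on mRNA. This gave 4 groups of 4 libraries: input control, input RAM siRNA, polysome control and polysome RAM siRNA. Library totals lay between 16647523 and 20147833 counts. The study describes the 4 replicates as biological, from separate transfections. All libraries came from 1 cell line, and the study's text points to 1 RAM siRNA for these replicates, so an action of that siRNA on other transcripts and the loss of RAM cannot be told apart here.

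MHC class I molecules display peptides from inside the cell to T lymphocytes. A heavy chain pairs with B2m in the endoplasmic reticulum, where Tap1 and Tap2 pump in peptides cut by the proteasome, and tapasin (Tapbp) and calreticulin (Calr) hold the empty heavy chain until a peptide binds. Transcription of classical heavy chain genes runs through short promoter elements, an NF-kB site and an interferon response element next to each other, and an SXY module bound by RFX, CREB or ATF and NF-Y proteins together with Nlrc5. ESCs are known for low class I levels and for weak interferon responses.

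The knockdown was present in every library labelled RAM siRNA. Ramac was at 10.6, 10.1, 10.8 and 11.6 CPM in the 4 input control libraries and at 3.10, 2.66, 3.10 and 3.16 CPM with RAM siRNA. In polysomes it was at 6.58, 6.86, 8.77 and 14.5 CPM in controls and at 0.961, 0.286, 2.24 and 2.60 CPM with RAM siRNA. The groups did not overlap in either fraction. The log2 difference was -1.84 in input (standard error 0.11, adjusted p = 7.2e-06) and -2.52 in polysomes (adjusted p = 0.128, and 2.4e-05 with the replicate number as a block). All adjusted p values are Benjamini-Hochberg values over all tested genes, called under 0.05. Its partner Rnmt was at 212 ± 21.0 CPM in input control and 274 ± 37.6 CPM with RAM siRNA (SD, n = 4 each), a log2 difference of 0.37 with an adjusted p of 0.0389 by edgeR's quasi-likelihood test.

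The libraries differed in spread between fractions, which bears on every test in polysomes. Among the 9135 genes whose mean reached 10 CPM, the median SD between replicates on the log2 scale was 0.11 in input control, 0.14 in input RAM siRNA, 0.26 in polysome control and 0.40 in polysome RAM siRNA. Polysome RAM siRNA replicate 2 stood farthest from its group, with a mean correlation of 0.88 with the 3 other libraries, against 0.91 to 0.95 for those. Libraries with the same replicate number deviated together in all groups, so polysome comparisons are given from a fit that ignores the replicate number and from one that blocks on it, and counts of members are also given with replicate 2 left out.

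The upstream sequence of H2-K1 is shown because H2-K1 was the gene by which the set was chosen, and that of B2m because its product pairs with every heavy chain. Both are from the RefSeq promoter table for GRCm38.p6, which held 6 of the 8 genes, and run 5′ to 3′ along the gene up to the base before its first annotated exon: chr17:34000348-34000597 on the minus strand for H2-K1 and chr2:122147437-122147685 on the plus strand for B2m. Capitals mark matches to an NF-kB type site (GGGNNTTCC), the interferon response element core (GAANNGAAA), the X2 box core (TGACG), the Y box (TGATTGG) and second forms of the first pair (GGAANNNCC and GAAANNGAA, added after the B2m sequence was seen), searched on both strands.
H2-K1: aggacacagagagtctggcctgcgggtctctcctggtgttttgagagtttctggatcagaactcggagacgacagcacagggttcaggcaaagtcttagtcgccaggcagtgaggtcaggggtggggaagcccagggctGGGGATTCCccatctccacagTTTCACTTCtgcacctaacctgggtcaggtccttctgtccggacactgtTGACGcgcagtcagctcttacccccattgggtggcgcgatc
B2m: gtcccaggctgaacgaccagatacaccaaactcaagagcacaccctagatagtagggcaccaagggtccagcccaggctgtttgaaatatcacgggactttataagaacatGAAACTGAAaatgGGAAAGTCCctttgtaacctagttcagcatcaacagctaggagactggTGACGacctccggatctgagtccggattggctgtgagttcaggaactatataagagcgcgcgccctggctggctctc
The H2-K1 stretch held the NF-kB type site, the interferon element on the opposite strand and the X2 core, with no overlap between them, and the same 9 bases matched both NF-kB forms. The B2m stretch held the second forms of the interferon element and of the NF-kB type site and the X2 core. Of 32851 promoter windows of 250 bases in the table, 4.98% held the NF-kB type site, 6.31% the interferon element, 17.8% the X2 core and 7.23% the Y box. The second NF-kB form was in 15.7% and the second interferon form in 7.13%, and 0.332% held both the NF-kB type site and the interferon element in their first forms.

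Among heavy chain genes, single windows were examined for H2-K1, H2-D1, H2-Q4, H2-Q7, H2-Q10 and Fcgrt, all higher in input with RAM siRNA. Other heavy chain genes, among them those that did not rise, were not examined singly, so the matches cannot be set against them. The run from the NF-kB type site to the interferon element is shown for the 4 examined heavy chain genes whose windows held both first forms. They lie on chromosome 17, at chr17:34000429-34000458 (minus strand) for H2-K1, chr17:35262923-35262952 for H2-D1, chr17:35439022-35439050 for H2-Q7 and chr17:35379444-35379472 for H2-Q4 (plus strand). Capitals mark both elements.
H2-K1: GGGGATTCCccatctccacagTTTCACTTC
H2-D1: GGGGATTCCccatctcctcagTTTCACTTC
H2-Q7: GGGGATTCCcatctccccagTTTCACTTC
H2-Q4: GGGATTTCCcatctccccagTTTCACTTC
Counted from 1 at the 5′ end of this run, H2-D1 differed from H2-K1 by A18T, between the elements. The windows of H2-D1, H2-Q7 and H2-Q4 also held the X2 core and the Y box, and those of Tap1 and Psmb9 held the X2 core and the Y box and no match to the other patterns. For H2-K1, a window from a second annotated start ended partway through a possible Y box. Whether H2-K1 lacks a Y box is therefore not settled by these windows. The window of H2-Q10 held the interferon element alone, and those of Tapbp and Calr held none of the patterns. That of Fcgrt held the X2 core and the second NF-kB form, and that of Rfx5 the Y box and the second NF-kB form. These are matches of letters and were not tested for binding.

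H2-K1, a classical heavy chain gene (ENSMUSG00000061232, chr17:33996017-34000347, minus strand, GRCm38), was about 2-fold higher with RAM siRNA in both fractions. It was at 30.8, 33.3, 37.3 and 35.1 CPM in the input control libraries and at 67.6, 66.5, 70.6 and 75.6 CPM in input RAM siRNA. In polysome control it was at 77.6, 83.7, 97.8 and 70.8 CPM, and in polysome RAM siRNA at 174, 184, 159 and 145 CPM. Every RAM siRNA library was above every control library in both fractions. The mean rose from 82.5 ± 11.5 to 166 ± 17.2 CPM in polysomes (SD, n = 4 each) by the fit with the replicate block (log2 difference 1.06, standard error 0.12, adjusted p = 5.4e-05 by edgeR's quasi-likelihood test), while the fit without the block gave 1.05 with a standard error of 0.17 and an adjusted p of 0.0694. An exact two-sided permutation test of the 4 against 4 polysome libraries gave p = 0.0286, the smallest such a design allows. The input difference that chose the gene was 1.04 on the log2 scale (standard error 0.08). The polysome libraries came from the same cultures as the input libraries, so they are other measurements of the same cells and not independent cultures.

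H2-D1, the other classical heavy chain gene (ENSMUSG00000073411, chr17:35262730-35267499, plus strand), followed the same order of groups with a smaller difference. In input it was at 28.9, 32.6, 44.5 and 31.7 CPM in controls and at 55.1, 58.0, 63.6 and 50.8 CPM with RAM siRNA, with a log2 difference of 0.72 (standard error 0.12). Polysome control libraries held 85.8, 92.2, 119 and 78.2 CPM and polysome RAM siRNA libraries 154, 157, 172 and 124 CPM. The groups did not overlap in either fraction, with the highest polysome control library, replicate 3, just under the lowest RAM siRNA library, replicate 4. The polysome difference of 0.74 missed the threshold without the block (adjusted p = 0.227) and passed with it (0.75, standard error 0.11, adjusted p = 0.000428, edgeR).

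B2m, the light chain shared by all class I molecules (ENSMUSG00000060802, chr2:122147686-122153083, plus strand), was higher with RAM siRNA in each of the 4 replicate pairs of both fractions. Input control libraries were at 11.1, 12.3, 17.5 and 11.6 CPM and input RAM siRNA libraries at 19.0, 17.9, 22.8 and 19.2 CPM. In polysomes B2m was at 18.5, 14.5, 39.7 and 25.4 CPM in controls and at 40.6, 16.7, 63.9 and 43.2 CPM with RAM siRNA. The input groups were apart, while the polysome groups overlapped, with replicate 2 the lowest and replicate 3 the highest library of each. The input log2 difference was 0.59 (standard error 0.14). In polysomes it was 0.80 without the block (standard error 0.44, adjusted p = 0.673) and 0.76 with it (standard error 0.14, adjusted p = 0.00172, edgeR). Without the block, the polysome difference was 0.46 when RAM siRNA replicate 3 was left out and 1.16 when control replicate 3 was. The exact two-sided permutation test, which does not use the pairs, gave p = 0.229.

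Tap1 and Tap2 form the transporter that moves peptides into the endoplasmic reticulum. Tap1 (ENSMUSG00000037321, chr17:34187553-34197225, plus strand) was at 8.22, 11.2, 8.35 and 8.58 CPM in input control and 10.6, 13.9, 12.7 and 9.47 CPM in input RAM siRNA. Tap2 (ENSMUSG00000024339, chr17:34203527-34216321, plus strand) was at 1.00, 1.15, 1.26 and 1.18 CPM in input control and 2.01, 2.48, 2.03 and 1.92 CPM in input RAM siRNA. The Tap1 groups overlapped in input, and the Tap2 groups did not. On the log2 scale the input differences were 0.36 for Tap1 (standard error 0.14) and 0.88 for Tap2 (standard error 0.18), the latter from 19 to 43 counts per library.

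In polysomes both transporter genes were highest in RAM siRNA replicate 2, the library that stood apart. Tap1 was at 13.9, 20.8, 13.4 and 12.7 CPM in controls and at 16.6, 34.3, 16.6 and 12.8 CPM with RAM siRNA, and its groups overlapped. Tap2 was at 2.48, 2.64, 1.29 and 1.64 CPM in controls and at 3.60, 6.00, 2.79 and 2.48 CPM with RAM siRNA, also with overlap. Tap1 passed in neither fit, at 0.44 without the block (adjusted p = 0.803) and 0.39 with it (standard error 0.13, adjusted p = 0.0548). Tap2 rose by the fit with the block (0.92, standard error 0.19, adjusted p = 0.00425) and did not pass without it (0.93, adjusted p = 0.408, edgeR). With replicate 2 left out of both groups, a choice made after seeing the data, the blocked differences were 0.26 for Tap1 (adjusted p = 0.066) and 0.78 for Tap2 (adjusted p = 0.00714).

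Tapbp, which bridges the transporter and the heavy chain (ENSMUSG00000024308, chr17:33915899-33929292, plus strand), went the other way. Input control libraries held 57.0, 67.4, 62.9 and 49.7 CPM and input RAM siRNA libraries 42.3, 47.6, 47.1 and 32.5 CPM. Polysome control libraries held 66.7, 84.9, 106 and 65.5 CPM and polysome RAM siRNA libraries 51.8, 62.5, 73.7 and 42.7 CPM. All input RAM siRNA libraries were under all input controls, and in polysomes each RAM siRNA library was under the control of its own replicate number although the groups overlapped. Its input log2 difference was -0.49 (standard error 0.12). In polysomes it fell by the fit with the block (-0.44, standard error 0.11, adjusted p = 0.0129), and without the block the same difference had an adjusted p of 0.692 (edgeR). Exons of Tapbp share 149 bases with Zbtb22 on the same strand and 904 with Gm19412 on the opposite strand. Over 16 libraries Zbtb22 had 6011 counts and Gm19412 had 77. How reads in the shared bases were assigned is not given in the sources used here.

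Calr, a general chaperone of glycoproteins in the endoplasmic reticulum (ENSMUSG00000003814, chr8:84841850-84846934, minus strand), was the most abundant of the set and did not differ beyond its spread. It ranged from 1117 to 1425 CPM in input control and from 1014 to 1384 CPM in input RAM siRNA. In polysomes it ranged from 1911 to 3148 CPM in controls and from 1683 to 3827 CPM with RAM siRNA, with the lowest library of each group in replicate 4 and the highest RAM siRNA library in replicate 2. The polysome difference was 0.00 without the block (standard error 0.27, adjusted p = 1.00) and -0.03 with it (standard error 0.13, adjusted p = 0.917, edgeR), and it was -0.04 in input (standard error 0.11).

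Nlrc5, the transactivator of class I genes (ENSMUSG00000074151, chr8:94434356-94527272, plus strand), was at the edge of detection. It had 7 to 14 counts per library in input control, 9 to 12 in input RAM siRNA, 2 to 6 in polysome control and 1 to 9 in polysome RAM siRNA. Its mean level in input was 0.561 ± 0.167 CPM in controls and 0.583 ± 0.0805 CPM with RAM siRNA (SD, n = 4 each). A fit without the filter gave a log2 difference of 0.03 with a standard error of 0.37 in input and 0.31 with a standard error of 0.68 in polysomes, so a change was not detectable at this depth.

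**Figure D1:**
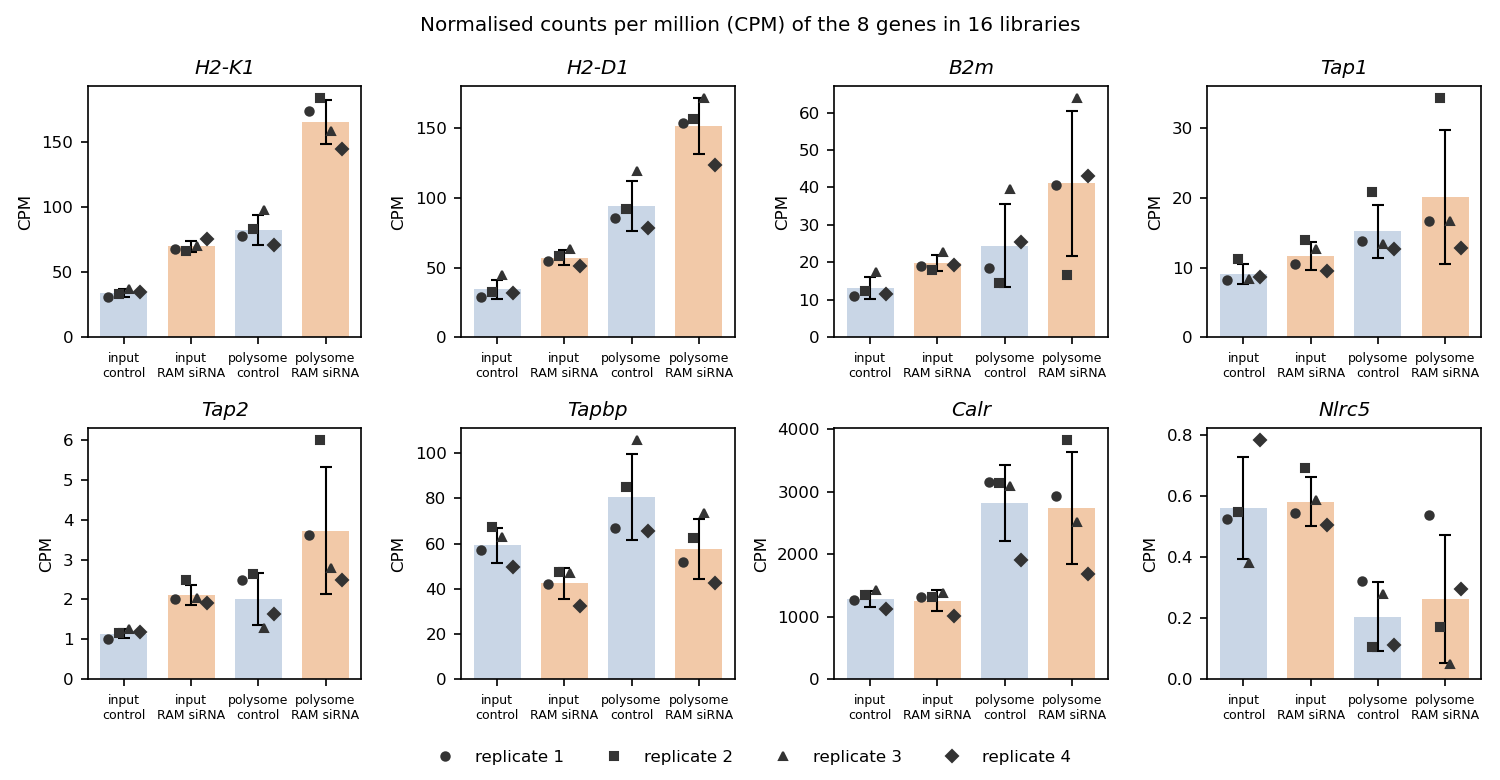
Normalized CPM (y axis, linear from 0) of the 8 genes in the 4 groups (x axis). Bars are group means, error bars the SD of 4 libraries and points single libraries, with 1 marker per replicate number. H2-K1 and H2-D1 are separated between RAM siRNA and control in both fractions, Tapbp is lower with RAM siRNA, and within polysome RAM siRNA replicate 2 is the lowest library for B2m and the highest for Tap1 and Tap2.

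Without the block, 0 of the 7 tested members passed the threshold in polysomes by edgeR, 3 had an unadjusted p under 0.05 and DESeq2 called 2 (H2-K1 and H2-D1). Of all 12805 genes, edgeR called 3 (0.0234%), 9.0% had an unadjusted p under 0.05 and DESeq2 called 2.34%. With the block, 4 members were higher (H2-K1, H2-D1, B2m and Tap2), where 9.68% of all tested genes were, and 1 was lower (Tapbp), where 4.97% of all were. With replicate 2 left out of both groups the counts with the block were also 4 and 1, where 21.3% of all tested genes were higher and 14.3% lower. The median log2 difference of the 7 members was 0.74 in polysomes, against 0.06 over all tested genes, and 0.59 in input, against 0.00. RAM siRNA libraries lay wholly above controls for 4 of the 7 members in input and 2 in polysomes, where 9.39% and 2.18% of tested genes did, and wholly below for 1 in input and 0 in polysomes, where 8.62% and 4.38% did. The members were chosen knowing their direction in input, so these counts are a description.

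Per kilobase of annotated exon, H2-K1, H2-D1, B2m and Tapbp lay within a narrow range in input control. Tapbp had the highest mean of them in input control and the lowest in input RAM siRNA. This order was limited to input. In polysome control Tapbp had the lowest mean, at 22.25 CPM per kb, against 28.1 for H2-K1, 28.5 for B2m and 36.4 for H2-D1. Its range there overlapped those of H2-K1 and B2m. In input control, Calr was at 447 CPM per kb, Tapbp at 16.3 (13.7 to 18.6 over 4 libraries), B2m at 15.3 (12.9 to 20.3), H2-D1 at 13.3 (11.2 to 17.3), H2-K1 at 11.6 (10.5 to 12.7), Tap1 at 1.66, Tap2 at 0.303 and Nlrc5 at 0.066. The ranges of Tapbp, B2m and H2-D1 overlapped, as did those of H2-D1 and H2-K1, while every H2-K1 library was under every B2m and Tapbp library. The divisor counts all annotated exons, whether or not they are used in these cells. Small differences between genes, such as that of H2-K1 and B2m, therefore also depend on the annotation. In input RAM siRNA, H2-K1 was at 23.9 CPM per kb (22.6 to 25.7), B2m at 23 (20.8 to 26.6) and H2-D1 at 22.1 (19.7 to 24.7), above Tapbp at 11.7 (8.97 to 13.1). Their order among themselves was again within the spread, while none of their libraries reached down to the Tapbp range. These are levels of RNA in bulk samples, in which more expressing cells and more RNA per cell cannot be told apart.

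In control cells the 7 tested members had a larger share of the polysome libraries than of the input libraries, and Nlrc5 had a smaller one (42 counts over the 4 input libraries and 15 over the 4 polysome libraries). The input control libraries took part in choosing the set, so this comparison is a description without a test for the members. The log2 difference of polysomes against input was 1.41 for H2-D1 (standard error 0.17), 1.24 for H2-K1 (0.13) and 1.10 for Calr (0.18). For B2m it was 0.87 (0.28), for Tap2 0.78 (0.25), for Tap1 0.71 (0.18) and for Tapbp 0.41 (0.17). All 7 tested members were above 0, while over all tested genes edgeR called 33.1% higher in polysomes and 34.3% lower, with a median of 0.00. H2-D1 lay above 98.6% of tested genes and Tapbp above 66.8%. Of the 29 other tested pathway genes, 19 were higher in polysomes and 4 lower by edgeR. With RAM siRNA the ratio of polysome to input CPM was 2.36 for H2-K1 and 2.66 for H2-D1, against 2.42 and 2.73 in control cells. Because each library is scaled to its own total, these are shares of the RNA in each fraction and not the share of a gene's molecules on ribosomes.

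**Figure D2:**
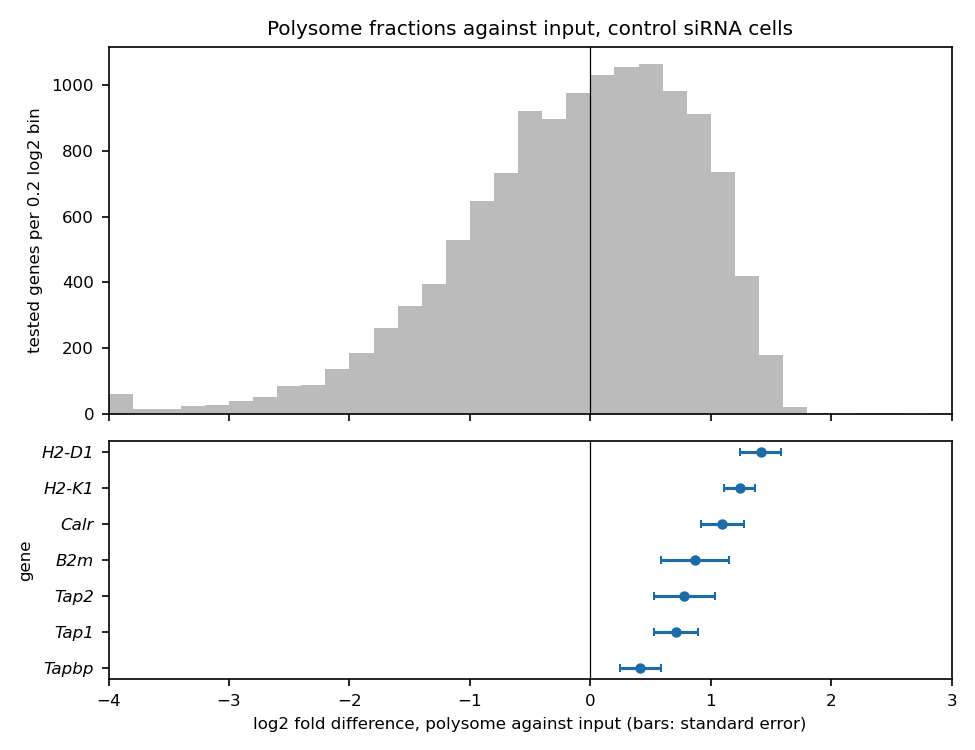
Upper panel, number of tested genes (y axis) per 0.2 log2 bin of the polysome against input difference in control siRNA cells (x axis), where the outermost bins also hold the 46 genes under -4 and the 1 gene above 3. Lower panel, the same difference for the 7 tested members (points) with standard errors (bars), all above 0, from 0.41 for Tapbp to 1.41 for H2-D1.

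How far the RAM siRNA difference changed between fractions was measured with errors as large as some of the differences. The polysome difference minus the input difference was -0.03 for H2-K1 (standard error 0.17), -0.03 for H2-D1 (0.23), 0.16 for B2m (0.47) and 0.04 for Tap1 (0.37). For Tap2, Tapbp and Calr it was 0.00, 0.00 and -0.01, with standard errors of 0.40, 0.27 and 0.32. These values share the input libraries that chose the members and are given without a test. Over all genes, edgeR called 0 of 12805 for this change, 100 had an unadjusted p under 0.05, DESeq2 called 1 and edgeR with the replicate block within each fraction called 2.

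Members differed in how they varied within groups. Over the 16 libraries, deviations from the group means on the log2 scale were positively correlated for 18 of the 21 pairs of tested members, with a median r of 0.41. H2-K1 and H2-D1 varied together (r = 0.71), as did H2-D1 and Tapbp (r = 0.77) and Tap1 and Tap2 (r = 0.80). B2m ran against the transporter genes, with r = -0.70 to Tap1 and -0.83 to Tap2, and r was 0.02 to H2-K1. The points are libraries that share depth, culture and replicate number, and replicates 2 and 3 of the polysome fractions, where B2m was lowest and highest, carry much of its range. H2-K1 was the steadiest in polysome RAM siRNA, with a coefficient of variation of 10.4%, against 47.0% for B2m and 48.0% for Tap1.

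The genes whose levels were most like H2-K1 over the 16 libraries, among the same 9135 genes, were Chrna5 (r = 0.99), Steap3 (0.98), Coch (0.97), Rcn3 (0.97) and Armh4 (0.97), and H2-D1 ranked 8 (0.96). This likeness holds the differences between the 4 groups, while B2m ranked 892 (r = 0.75). By deviations from the group means the nearest were Cox15 (r = 0.93), Nfya (0.84), Tbc1d9b (0.84), Elovl4 (0.83) and Nt5dc3 (0.83). In the 8 polysome libraries alone, 2 of the first 5 stayed among the nearest (Chrna5 and Steap3) and H2-D1 ranked 3, and in the 8 input libraries alone 0 of the first 5 did.

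Next to H2-K1 on chromosome 17, the tested genes had smaller input differences. Among the 5 on each side, Ring1, a Polycomb group gene with a gap of 20.4 kb to H2-K1, fell (log2 difference -0.37, adjusted p = 0.0206 by edgeR), and the other 9 did not pass without the block. Input differences of the others ran from -0.15 (Vps52) to 0.29 (H2-Oa, adjusted p = 0.371). With the block, Wdr46 also rose (0.26, adjusted p = 0.00025, against 0.0855 without it). The ribosomal protein gene Rps18 was at -0.04 and the bromodomain gene Brd2 at 0.09.

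**Figure D3:**
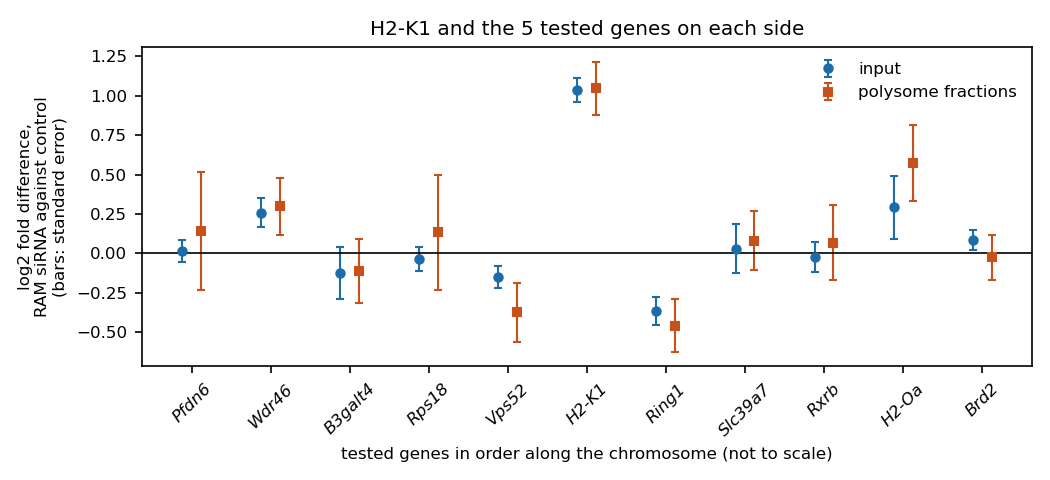
Log2 difference of RAM siRNA against control (y axis) for H2-K1 and the 5 tested genes on each side in chromosome order (x axis, not to scale), in input (circles) and polysomes (squares), with standard errors as bars. H2-K1 is at 1.04 and 1.05, and the neighbors in input run from -0.37 to 0.29.

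Outside the 8 members, 40 further genes of the class I pathway were listed, of which 29 passed the filter. These genes did not enter the choice, though the lists were drawn up with results of these data known. In input, 6 of the 29 were higher by edgeR without the block (20.7%, against 6.95% of all tested genes) and 2 were lower (6.9%, against 5.94%). The 6 include Psmb9, which passed the filter only with the RAM siRNA libraries, where it was higher. With the block 8 were higher, where 20.3% of all tested genes were, and 4 were lower, where 19.0% were. Their median log2 difference was 0.05, against 0.00 over all tested genes. In polysomes 0 of the 29 passed without the block (6 with an unadjusted p under 0.05 and 3 called by DESeq2, against 9.0% and 2.34% of all tested genes), and with it 7 were higher (24.1%, against 9.68% of all tested genes) and 1 lower (3.45%, against 4.97%).

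Other heavy chains made up 4 of the 6 genes called higher in input. Of the 19 listed, 9 were tested, 4 rose and 0 fell without the block (of all tested genes 6.95% and 5.94% did). H2-Q7, a nonclassical class I gene, was at 1.11, 1.5, 0.982 and 1.23 CPM in input control and at 5.11, 3.81, 2.73 and 5.75 CPM in input RAM siRNA (log2 difference 1.84, standard error 0.25, adjusted p = 0.00076). H2-Q10 rose by 1.05 (adjusted p = 0.00739) and H2-Q4 by 0.85 (adjusted p = 0.0116), both from levels between 1.05 and 1.95 CPM in control. Fcgrt, the heavy chain of the neonatal Fc receptor, which also binds B2m, was at 16.4 ± 1.94 CPM in control and 25.2 ± 4.23 CPM with RAM siRNA (SD, n = 4 each) and rose by 0.61 (adjusted p = 0.00782). The groups of these 4 genes did not overlap in input. In polysomes 5 of the 9 rose with the block (55.6%, against 9.68% of all tested genes) and 0 fell, with 1.51 for H2-Q7 (adjusted p = 4.3e-05), 1.07 for H2-Q10 (adjusted p = 0.000652), 1.07 for H2-Q4 (adjusted p = 0.00167), 0.65 for H2-M3 (adjusted p = 0.00413) and 0.47 for Fcgrt (adjusted p = 0.0115). Their adjusted p by edgeR without it ran from 0.0778 for H2-Q7 to 0.673 for Fcgrt, while DESeq2 called H2-Q7, H2-Q10 and H2-Q4 without a block. The other 5 tested genes did not pass in input without the block, and with it H2-M3, which presents formylated peptides, rose (0.50, adjusted p = 0.0151, against 0.112) and H2-M5 fell (-0.17, adjusted p = 0.016, against 0.166). These 2 are named after their values were seen.

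Reads of the heavy chain genes can be shared between near copies. Of the distinct 75-base windows of their annotated transcripts, 3.1% in H2-K1, 5.4% in H2-D1, 7.02% in H2-Q4, 12.5% in H2-Q10 and 17.0% in H2-Q7 also occurred in transcripts of other genes, and 0% in B2m, Tap1, Tap2 and Calr. H2-Q7 and H2-Q10 shared most with each other. The windows are of the reference strain and the cells of 129Ola, and how the counting treated shared reads is not given in the sources used here, so the low H2-Q values are uncertain.

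In peptide production, Psmb9, an interferon-inducible subunit of the immunoproteasome, was at 0.369, 0.699, 0.546 and 0.953 CPM in input control and at 0.979, 1.91, 1.55 and 1.92 CPM with RAM siRNA. The groups did not overlap, with a log2 difference of 1.3 and an adjusted p of 0.016 by edgeR. That call was lost without control replicate 1 (0.0538) or RAM siRNA replicate 2 (0.05). All of its input control libraries were under 1 CPM after normalization. On the library totals that the filter used, control replicate 4 (17 counts) reached 1 CPM. Psmb9 passed the filter only with the RAM siRNA libraries, where it was higher. Its difference is therefore given as a description, and its call is not taken as a rise. Psmb9 starts 226 bases from Tap1 on the opposite strand, and exons of the pair share 212 bases, for which the strand setting of the counting decides the assignment. Psmb8, its usual partner, had 5 counts over the 4 input control libraries and 5 over the 4 RAM siRNA libraries. Psme2, a subunit of the proteasome activator, fell by 0.51 (from 18.5 ± 2.78 to 13.0 ± 0.972 CPM, adjusted p = 0.012), and the constitutive catalytic subunit Psmb7 rose by 0.58 (from 107 ± 7.73 to 160 ± 18.2 CPM, adjusted p = 0.0015).

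Among the other chaperones and peptidases of the pathway, the counts were near those of all tested genes (6.95% higher and 5.94% lower). Of 7 further loading genes, 1 fell in input, Bcap31, which carries class I molecules out of the endoplasmic reticulum (-0.36, adjusted p = 0.0158, lost at 0.0506 without control replicate 1), and 0 rose. Canx, Pdia3 and Hspa5, general folding factors, had differences of 0.07, 0.05 and 0.14, and the first pair is named after its values were seen. Of 6 peptidases, 0 passed in input by edgeR without the block, 0 had an unadjusted p under 0.05 and DESeq2 called 0. Erap1, which trims peptides to length and is named after its value was seen, was at 0.09. With the block, 1 of the 7 loading genes rose (Hspa5, 0.13, adjusted p = 0.0341) and 1 fell. Among the 6 peptidases 0 rose and 1 fell with it (Lnpep, -0.19, adjusted p = 0.0126). Of all tested genes 20.3% rose and 19.0% fell with the block.

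**Figure D4:**
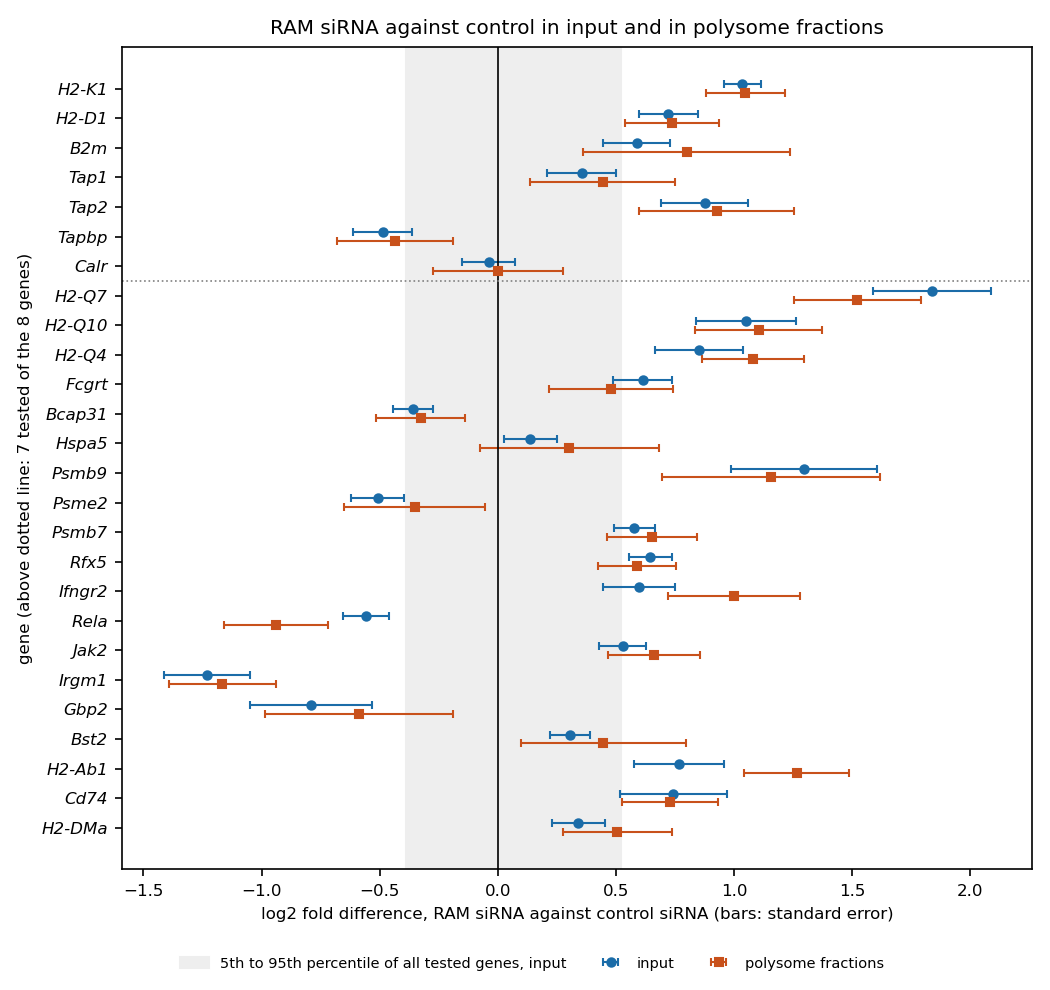
Log2 difference of RAM siRNA against control (x axis) with standard errors for the 7 tested members (above the dotted line) and the pathway, regulator, interferon and class II genes named by the rule (below), in input (circles) and polysomes (squares). The gray band spans the 5th to 95th percentile of all tested genes in input, from -0.39 to 0.52. In input, H2-Q7 (1.84), Psmb9 (1.3), H2-Q10 (1.05) and H2-K1 (1.04) lie farthest to the right of the band, and Irgm1 (-1.23) and Gbp2 (-0.79) farthest to the left. Psmb9 and Gbp2, which passed the filter only through the groups where they were higher, are shown as a description.

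Among 27 known regulators of class I transcription, 24 were tested, and 3 rose and 3 fell in input without the block (6.95% and 5.94% of all tested genes did), with a median of -0.07. With the block 4 rose and 6 fell, where 20.3% and 19.0% of all tested genes did. Rfx5, which binds the X box, was at 9.06, 8.44, 9.99 and 8.75 CPM in input control and at 13.9, 14.6, 13.5 and 14.8 CPM with RAM siRNA (0.65, adjusted p = 0.00109). Rela, the NF-kB subunit that binds the NF-kB type site, fell from 20.3 ± 1.94 to 13.9 ± 1.28 CPM in input (-0.56, adjusted p = 0.00387) and had a polysome difference of -0.94 (adjusted p = 0.164 without the block and 0.000242 with it). Of the receptors and kinases of interferon signaling, Ifngr2 rose by 0.60 (adjusted p = 0.0231, lost in 4 of 8 fits without 1 library) and Jak2 by 0.53 (adjusted p = 0.00574). The NF-Y subunits Nfyb (-0.44, adjusted p = 0.0123) and Nfya (-0.32, adjusted p = 0.0412) were the other genes that fell, and are named here after their values were seen. The interferon response factor Irf1, also named after its values were seen, was at 23.2 ± 2.45 and 22.4 ± 2.11 CPM in input (SD, n = 4 each).

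Among interferon genes and their targets 1 of 6 tested rose and 1 fell in input, where 6.95% and 5.94% of all tested genes did. Ifnb1, Ifna1, Ifna2, Ifna4 and Ifit3 had 0 counts in all 16 libraries. Of 18 listed genes 6 were tested, with a median input difference of -0.26. Irgm1, an interferon-inducible GTPase, fell from 7.30 ± 1.32 CPM to 3.11 ± 0.668 CPM (-1.23, adjusted p = 0.00133), and Bst2, which tethers viruses to the cell surface, rose by 0.31 (adjusted p = 0.0337, lost in 5 of 8 such fits). Gbp2 was at -0.79 (adjusted p = 0.0624, and 0.012 with the block). It passed the filter only with the control libraries, where it was higher. Its difference is therefore a description, and its call with the block is not taken as a fall. Isg15 had 18 counts over the 4 input control libraries and 19 over the 4 RAM siRNA libraries.

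Class II genes, which present peptides from outside the cell, were in part higher with RAM siRNA, at mean levels from 1.12 CPM (H2-Ab1) to 12.7 CPM (H2-DMa) among those tested in input control. Of 7 listed genes 5 were tested and 2 rose in input, Cd74, the invariant chain (from 2.76 ± 1.02 to 4.66 ± 0.629 CPM, 0.74, adjusted p = 0.0492), and H2-Ab1 (from 1.12 ± 0.131 to 1.91 ± 0.236 CPM, 0.77, adjusted p = 0.02), calls lost in 6 and 4 of the 8 fits without 1 library. Of all tested genes 6.95% rose without the block and 20.3% with it. With the block H2-DMa also rose (0.34, adjusted p = 0.00514, against 0.0623 without it). Ciita, their master regulator, had 2 counts over the 4 input control libraries and 3 over the 4 RAM siRNA libraries.

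The cells carried the markers of ESCs in every group, and some markers of other cell types moved with the treatment. The 9 ESC markers summed to 4835 ± 175 CPM in input control and 4208 ± 252 CPM in input RAM siRNA (SD, n = 4 each), with Tdgf1 the most abundant, and 3 of them fell without the block (Nanog, Esrrb and Dppa5a; 5.94% of all tested genes fell). With the block 8 of the 9 fell, all but Sox2, where 19.0% of all tested genes did, and all 9 log2 differences were negative, from -0.36 (Dppa5a) to -0.09 (Sox2). The 6 markers of primitive endoderm summed to 21.0 ± 0.721 and 25.9 ± 3.69 CPM, led by Pdgfra, and Gata6 (0.61, adjusted p = 0.0196) and Dab2 (0.55, adjusted p = 0.0384) rose. Sox7 of the same list was at -0.77 (adjusted p = 0.0573) and fell with the block (adjusted p = 0.00113), as Pdgfra rose with it (0.42, adjusted p = 0.00309). The 9 fibroblast markers summed to 13.4 ± 1.00 and 17.7 ± 1.97 CPM, led by Thy1, with 3 of the 9 at 0 counts in input control and 1 in RAM siRNA, and Pdgfrb rose (0.52, adjusted p = 0.0268). The 6 blood markers, led by Cd68, summed to 13.0 ± 2.75 and 13.1 ± 3.01 CPM, and the leukocyte gene Ptprc had 9 and 10 counts over 4 libraries. Neural markers, led by Tubb3 in control, summed to 81.4 ± 5.0 and 88.3 ± 5.90 CPM, with Nes at 0.42 (adjusted p = 0.0531, and 3.7e-06 with the block) and Pax6 at -0.50 (adjusted p = 0.0506, and 0.000287 with the block). Trophectoderm markers, led by Eomes, summed to 15.2 ± 1.13 and 12.3 ± 1.56 CPM. The part of cells of other types in the class I differences was not tested.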

How the data were processed

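Total RNA libraries depleted of ribosomal RNA (TruSeq Stranded, 75-base paired reads) were aligned by the authors with STAR 2.5.1b to mm10, and reads per gene were counted with htseq-count, whose strand and overlap settings are not given in the sources used here. The deposited values were raw counts for 46983 genes in 16 libraries, with 0 columns of other samples. Symbols and exon lengths came from GENCODE vM21 (GRCm38), which held 46488 of the identifiers.

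Genes with at least 1 CPM in at least 10 libraries were kept, the filter the authors give. Counts were scaled by TMM and tested with edgeR 4.0.16 (quasi-likelihood test, Benjamini-Hochberg adjustment over all 12805 tested genes, threshold 0.05) in R 4.3.3, and with DESeq2 1.42.0 as an alternative, and both were tested on simulated data. Standard errors are the unshrunken coefficient over the square root of F. Printed CPM are scaled by TMM over the 16 libraries, while the filter used CPM on library totals. Levels per kb divide by the union of annotated exons. The planned test of polysomes against input in control cells is not reported for the members, since its input libraries took part in choosing them. Same-numbered libraries deviated together (r of deviations from group means 0.40 to 0.79 between control and RAM siRNA input, 0.63 to 0.94 in polysomes and 0.23 to 0.71 between fractions of 1 treatment, over 9135 genes), so the numbers pair the samples. Libraries of 1 group differed by at least 4.22 times the sampling noise (chi-square per gene), so none was counted as a repeat.

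Members and gene lists were chosen with earlier results of these data known. Besides the 8 members, at most the 4 genes of each list with the largest absolute input differences were named among those past the threshold in input or polysomes with or without the block, together with Ramac and Rnmt, the most abundant marker of each list, the 5 tested genes on each side of H2-K1 and the 5 genes most like it; every other gene named with a value, among them markers of other cell types, Psmb8, Isg15 and Ciita, was chosen after its values were seen. Alternatives were DESeq2, RLE scaling, no filter, 1 CPM in 4 libraries, the replicate block and each library left out.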

Additional observations from a re-analysis of the deposited data

Results flagged for a closer look

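Among 112 combinations of a gene and a group, 9 had 1 library far from the 3 others by Dixon's test for an outlying value, which chance gives in about 1 of 20 groups. Tap1 replicate 2 was high in input control (11.2 CPM, others 8.22 to 8.58) and in polysome control (20.8 CPM, others 12.7 to 13.9). Calr replicate 4 was low in polysome control (1911 CPM, others 3093 to 3148). Also in polysome control, H2-Q7 replicate 4 was at 4.93 CPM (others 3.13 to 3.22), Fcgrt replicate 3 at 60.6 CPM (others 36.7 to 40.3) and Rela replicate 4 at 31.8 CPM (others 26.5 to 27.4). In input, H2-Q4 was at 3.05 CPM in RAM siRNA replicate 1 (others 2.41 to 2.48), Psme2 at 22.6 CPM in control replicate 2 (others 16.8 to 17.5) and H2-DMa at 10.3 CPM in control replicate 1 (others 13.3 to 13.9).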

How the results depend on the processing

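With the replicate block, 5028 genes were called in input (1651 without it), 1875 in polysomes (3 without it) and 5 members in polysomes (0 without it); loading calls were 2 with the block within each fraction and 1 by DESeq2, against 0. In polysomes DESeq2 called 300 genes and 2 members, no filter gave 32 genes and 1 CPM in 4 libraries gave 18. Without replicate 2 in both groups (added after seeing the data), 1 gene and 0 members were called without the block and 4558 genes and 5 members with it. Leaving out 1 library gave 906 to 2506 genes in input, 0 to 48 genes and 0 to 1 members in polysomes, the highest without RAM siRNA replicate 2, where H2-K1 passed (adjusted p = 0.0496).

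The polysome differences of H2-K1, H2-D1, B2m, Tap1, Tap2 and Tapbp kept their direction in all alternatives, and their input differences did too. Leaving out 1 library moved Tap1 from 0.44 to 0.079 and Tap2 from 0.93 to 0.62 (without RAM siRNA replicate 2), B2m from 0.80 to 0.46 (without RAM siRNA replicate 3) and Tapbp from -0.44 to -0.25 (without control replicate 3). That of Calr turned from 0.00 to -0.012 (DESeq2, RLE scaling), -0.048 (no filter), -0.024 (1 CPM in 4 libraries), -0.028 (block) and -0.135 and -0.138 (without replicate 2, without and with the block), and ranged from -0.19 (without RAM siRNA replicate 2) to 0.16 leaving out 1 library. The polysome difference of Hspa5 ranged from -0.10 (without RAM siRNA replicate 2) to 0.52 leaving out 1 library and was -0.020 with the block and no replicate 2. That of Lnpep ranged from -0.14 (without RAM siRNA replicate 2; -0.022 without control replicate 4) to 0.33, and was -0.021 without and -0.046 with the block when replicate 2 was left out. Input calls lost when 1 library was left out were those of Psmb9 (without control replicate 1, adjusted p = 0.0538, or RAM siRNA replicate 2, 0.05), Bcap31 (without control replicate 1, 0.0506), Ifngr2, Bst2, H2-Ab1 and Cd74 (in 4, 5, 4 and 6 of the 8 such fits). The call of Bst2 was also lost with no filter (0.0694) and that of Cd74 with 1 CPM in 4 libraries (0.0506). The causes were not tested. Depth limits Nlrc5, Tap2, Psmb9 and the H2-Q genes.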
